A study of Mus musculus with 4 samples.

Results

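RNA-seq was used to examine 10 immunoglobulin and plasma cell genes in libraries of mouse tibial bone marrow. They were taken by symbol from the deposited transcript tables: the heavy chain constant genes Ighm, Ighd, Igha, Ighg2b and Ighg3, the kappa light chain constant gene Igkc, the joining chain gene Jchain, and the plasma cell genes Xbp1, Mzb1 and Sdc1. They are 10 of the 55401 genes in the tables. The study asked how treadmill exercise remodels the bone marrow in diet-induced obesity. Male wild-type C57/B6 mice were put on a high-fat diet (HFD) from 8 weeks of age to make them obese and were divided at random into an obesity group (Ob, n = 2 libraries) and an obesity-combined-with-exercise group (Ob + Exe, n = 2 libraries). The Ob + Exe mice ran at moderate intensity on a treadmill for 12 weeks. The obesity model was common to both groups, and no library of lean mice was analysed here. The replicate numbers tell the libraries of a group apart. The labels do not say in so many words that each library is a separate mouse. The tests below therefore compare libraries, and whether they compare separate mice is not known.

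The libraries were made from poly-A RNA of marrow spun out of the bone. Their labels name bone marrow as the tissue, but give mesenchymal stem cells as the cell line and fibroblast as the cell type. The levels followed the tissue label. FPKM is a level per length of transcript that also allows for the depth of the library, and the values below were further scaled between libraries. Neutrophil markers summed to a scaled FPKM of 17585 to 45266 and erythroid markers to 47789 to 75669.6 over the 4 libraries, whereas 9 fibroblast and stromal markers summed to 23.4 to 29. The values rest on 8702 to 9952 Mb of aligned bases per library, and the depth behind a gene is given as read equivalents, its coverage in units of 150-base reads. One library was often the highest for the genes described here. Ob replicate 1 had the highest value of the 4 libraries for 7 of the 10 genes, against 17.9% of the 12409 genes whose mean FPKM was 1 or more. For Ighd (57.9, against 56.5 in Ob replicate 2) and Xbp1 (67.4, against 64.9 in Ob + Exe replicate 2) the next library was close.

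An antibody is built from heavy chains and light chains, each with a variable part that binds the antigen and a constant part. The heavy chain constant gene in use sets the isotype: Ighm encodes IgM and Ighd IgD, the isotypes of naive B cells, while Igha and the Ighg genes encode IgA and IgG, which are reached by class switching. A heavy chain transcript can end in a membrane exon, which anchors the antibody in the B cell surface as the antigen receptor, or in a secretory end, which is used by plasma cells. Plasma cells are the antibody-secreting end stage of the B lineage, and the bone marrow is a site where they can persist for a long time. Jchain encodes the small protein that links IgM and IgA into polymers. Xbp1 encodes a transcription factor that expands the secretory pathway, Mzb1 an endoplasmic reticulum protein that aids antibody assembly, and Sdc1 the surface proteoglycan syndecan 1 (CD138), by which plasma cells are commonly sorted and which epithelial cells also carry.

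The 5 heavy chain genes lie together on the minus strand of chromosome 12 of GRCm38. Ighm spans 113418558 to 113422730, Ighd 113406604 to 113416324, Ighg3 113356224 to 113361232, Ighg2b 113302965 to 113307933 and Igha 113254830 to 113260236. Igkc lies on the plus strand of chromosome 6 from 70726435 to 70726966 as 1 exon. Jchain lies on the minus strand of chromosome 5 (88519809 to 88527891), Xbp1 on the plus strand of chromosome 11 (5520659 to 5525893) and Sdc1 on the plus strand of chromosome 12 (8771323 to 8793715). Of the 26 annotated transcripts, 25 had the same coordinates, exons and length in the GENCODE vM21 annotation that was used here for sequences. Mzb1 is located where its values are given.

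The letters by which the secreted and membrane transcripts of Ighm differ are shown because the spread between libraries turned out to lie mainly in one of these forms. Each line gives coding sequence of GRCm38 from 5′ to 3′ on the minus strand, from the GENCODE vM21 transcripts, up to the last codon before the stop. The last 30 coding bases that both forms share are in lower case, and the coding bases of that form alone are in capitals. The secreted end, chr12:113420870-113420958, reads on from the same exon. The membrane end joins the last shared base, at 113420929, to exons at chr12:113418953-113419068 and chr12:113418829-113418834.
Ighm secreted: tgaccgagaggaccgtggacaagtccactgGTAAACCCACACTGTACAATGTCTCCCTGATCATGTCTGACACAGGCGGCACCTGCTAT
Ighm membrane: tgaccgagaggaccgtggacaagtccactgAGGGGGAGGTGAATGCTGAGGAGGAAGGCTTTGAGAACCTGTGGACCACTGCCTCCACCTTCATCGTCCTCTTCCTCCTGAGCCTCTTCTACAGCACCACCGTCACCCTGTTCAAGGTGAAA

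The secreted ends of the switched isotypes are set beside it in the same way, since Igha shares with Ighm a long secretory tail and the Ighg genes do not. They lie at chr12:113258771-113258859 for Igha, chr12:113306392-113306426 for Ighg2b and chr12:113359668-113359702 for Ighg3.
Igha secreted: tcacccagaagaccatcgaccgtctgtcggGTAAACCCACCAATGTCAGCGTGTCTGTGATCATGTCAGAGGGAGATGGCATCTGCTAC
Ighg2b secreted: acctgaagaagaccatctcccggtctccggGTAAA
Ighg3 secreted: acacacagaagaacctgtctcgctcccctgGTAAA

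All 4 of these secreted ends open with the letters GTAAA. Ighm and Igha have 59 secreted coding bases of their own, 40 of which are identical (67.8%), and Ighg2b and Ighg3 have 5. The tail of IgM and IgA is the part through which Jchain links them. The membrane form of Ighm has 122 coding bases of its own.

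None of the 10 genes passed the test between Ob + Exe and Ob, and for 9 of them the values of the groups overlapped. All 10 passed the filter on low values, 5 had a log2 fold change below 0 and 5 above 0, and none was called at an unadjusted p under 0.05 with a log2 fold change beyond 1 (limma's moderated test on log2 of scaled FPKM + 0.1). Of the 18596 genes tested, 3.74% were called in that way. No member had an unadjusted p under 0.05, and their Benjamini-Hochberg adjusted p ranged from 0.959 to 0.992 in limma. Over all genes tested, limma likewise gave no adjusted p under 0.05 and 940 genes with an unadjusted p under 0.05. A replicate block left 18 genes at a limma adjusted p under 0.05, none of them among the 10 described here. The median log2 fold change was -0.04 over the 10 genes and -0.02 over all genes. The groups did not overlap for 1 of the 10, Ighd, against 32.6% of all genes tested. In these bulk libraries, fewer cells of a type and less RNA per cell cannot be told apart.

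**Figure D1:**
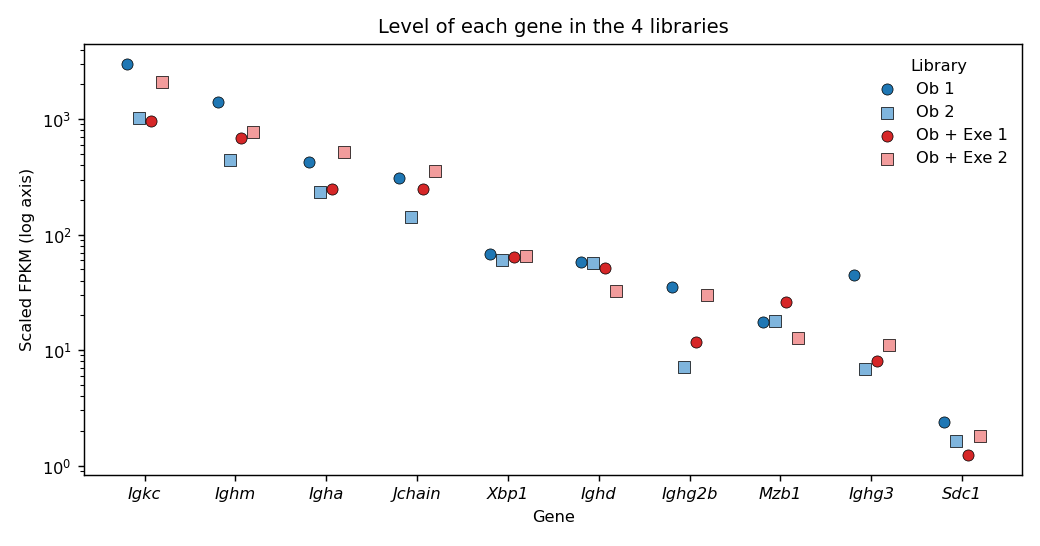
Scaled FPKM of the 10 genes (log axis) in the 2 Ob libraries (blue) and the 2 Ob + Exe libraries (red), with genes ordered by their mean. Igkc and Ighm had the highest levels and Sdc1 the lowest, and the Ob 1 and Ob 2 points of Ighm, Ighg2b, Ighg3, Igkc and Jchain lie more than 2-fold apart.

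The level per length of the genes followed nearly the same order in every library. Igkc was highest with a mean scaled FPKM of 1778 over the 4 libraries, followed by Ighm (826), Igha (355), Jchain (265), Xbp1 (64.2), Ighd (49.6), Ighg2b (21.1), Mzb1 (18.5), Ighg3 (17.6) and Sdc1 (1.76). Each neighbour in this order held its place in 4 of 4 libraries, except that Ighg2b was above Mzb1 in 2 of 4 and Mzb1 above Ighg3 in 3 of 4. Ighg2b, Mzb1 and Ighg3 were therefore not ordered beyond their spread. The 10 genes together held 1.17% and 0.458% of the summed FPKM of the Ob libraries, and 0.54% and 0.775% of that of the Ob + Exe libraries.

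Ighm, the heavy chain of IgM, had a scaled FPKM of 1397 and 439 in Ob (918 ± 677, SD, n = 2), versus 693 and 774 in Ob + Exe (734 ± 57.1, SD, n = 2). Both Ob + Exe values lay between the 2 Ob values, which differed 3.18-fold. Its log2 fold change was -0.10 (standard error 0.55, 95% interval -1.44 to 1.25, limma adjusted p = 0.988), and 0.73 without Ob replicate 1. At least 46946 read equivalents stood behind each value, so that the spread between libraries, not the depth, set the width of the interval.

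Ighd, which is expressed from the same primary transcript as Ighm in mature naive B cells, was the one gene whose groups did not overlap. Its scaled FPKM was 57.9 and 56.5 in Ob (57.2 ± 0.937, SD, n = 2), versus 51.7 and 32.4 in Ob + Exe (42.1 ± 13.6, SD, n = 2). The Ob values were nearly equal, and the Ob + Exe values were lower and farther apart from each other. The log2 fold change of -0.48 (standard error 0.27, 95% interval -1.16 to 0.19) had an adjusted p of 0.959 in limma. Values that were lower in both Ob + Exe libraries than in both Ob libraries were found for 18.3% of all genes tested. Without Ob + Exe replicate 2 the log2 fold change of Ighd was -0.16.

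Igha, the heavy chain of the IgA of mucosal secretions, had a scaled FPKM of 422 and 232 in Ob (327 ± 134, SD, n = 2), versus 251 and 515 in Ob + Exe (383 ± 187, SD, n = 2). Each group held a high and a low library, and the groups overlapped. For Igha the log2 fold change was 0.20 (standard error 0.45, 95% interval -0.90 to 1.3, limma adjusted p = 0.978). It was -0.24 without Ob replicate 2 and -0.33 without Ob + Exe replicate 2.

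Of the IgG genes, Ighg2b had a scaled FPKM of 35.4 and 7.17 in Ob, versus 11.7 and 30.1 in Ob + Exe. The Ob libraries differed 4.94-fold and the Ob + Exe libraries 2.58-fold, while the group means of 21.3 and 20.9 were close. The log2 fold change of 0.23 had a standard error of 0.81 (95% interval -1.77 to 2.23, limma adjusted p = 0.985), and it was -0.93 without Ob replicate 2 and -0.46 without Ob + Exe replicate 2. Its values rested on 650 to 2738 read equivalents. Among windows of 50 bases of its transcripts, 4.15% also occur in another immunoglobulin constant gene, mostly Ighg2c, so a small part of its reads could be assigned to either.

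Ighg3 showed the widest range of the 10 genes. Its scaled FPKM was 44.4 in Ob replicate 1 and 6.81 in Ob replicate 2, a 6.52-fold difference, and 8.13 and 11 in Ob + Exe. The 3 other libraries thus lay close together below Ob replicate 1. The means were 25.6 ± 26.6 in Ob and 9.57 ± 2.04 in Ob + Exe (SD, n = 2 each), and the log2 fold change was -0.88 (standard error 0.83, 95% interval -2.92 to 1.17, limma adjusted p = 0.959). The difference rested on Ob replicate 1. Without it the log2 fold change was 0.46, and without Ob replicate 2 it was -2.23, where Ighg3 was called (limma adjusted p = 0.535).

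Igkc, the constant part of the light chain of most mouse antibodies, had a scaled FPKM of 3032 and 1026 in Ob (2029 ± 1419, SD, n = 2), versus 967 and 2087 in Ob + Exe (1527 ± 792, SD, n = 2). Each group held a low and a high library, which differed 2.96-fold in Ob and 2.16-fold in Ob + Exe. Igkc had a log2 fold change of -0.31 (standard error 0.62, 95% interval -1.85 to 1.23, limma adjusted p = 0.975), which was 0.46 without Ob replicate 1 and 0.23 without Ob + Exe replicate 1. An annotated gene on the same strand, Gm30211, overlaps Igkc, and its scaled FPKM was 0.671 to 1.94.

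Jchain had a scaled FPKM of 312 and 141 in Ob (227 ± 121, SD, n = 2), versus 251 and 354 in Ob + Exe (302 ± 72.7, SD, n = 2). The lowest value was that of Ob replicate 2 and the highest that of Ob + Exe replicate 2, and Ob replicate 1 lay between the Ob + Exe values. Its log2 fold change of 0.50 was the highest among the 10 genes, with a standard error of 0.42 and a 95% interval of -0.53 to 1.53 (limma adjusted p = 0.959). Without Ob replicate 2 it was -0.08.

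Xbp1 varied least. Its scaled FPKM was 67.4 and 60.1 in Ob (63.8 ± 5.22, SD, n = 2), versus 64.2 and 64.9 in Ob + Exe (64.6 ± 0.474, SD, n = 2), so that the highest and the lowest library differed 1.12-fold. Many cell types with an active secretory pathway express this gene. The log2 fold change was 0.02 (standard error 0.19), and its 95% interval of -0.46 to 0.50 excludes a change beyond 1 in either direction (limma adjusted p = 0.992). With no scaling it was -0.07 and with quantile normalization -0.04, and without Ob replicate 2 it was -0.07.

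Mzb1, an endoplasmic reticulum protein of B cells, plasma cells and plasmacytoid dendritic cells, had a scaled FPKM of 17.5 and 17.7 in Ob (17.6 ± 0.168, SD, n = 2), versus 25.9 and 12.8 in Ob + Exe (19.4 ± 9.24, SD, n = 2). Here the Ob values agreed closely and the Ob + Exe values lay on either side of them. The log2 fold change was 0.05 (standard error 0.36, 95% interval -0.84 to 0.94, limma adjusted p = 0.990), and it was -0.04 with no scaling and -0.46 without Ob + Exe replicate 1. It lies on the minus strand of chromosome 18 (35647267 to 35649367), where the annotated gene Gm50318 overlaps it on the same strand. Gm50318 was listed at 0 in 3 libraries and had a scaled FPKM of 0.984 in Ob + Exe replicate 2, the library with the lowest Mzb1 value.

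Sdc1 was the lowest of the 10 genes, with a scaled FPKM of 2.38 and 1.63 in Ob (2.01 ± 0.531, SD, n = 2), versus 1.23 and 1.81 in Ob + Exe (1.52 ± 0.412, SD, n = 2). The groups overlapped by 1 library each. Its log2 fold change of -0.38 had a standard error of 0.44 (95% interval -1.46 to 0.70, limma adjusted p = 0.970), on 227 to 509 read equivalents. Epithelial cells also carry Sdc1, and 6 epithelial markers summed to a scaled FPKM of 2.72 to 4.26. Of these, Cdh1 was at 1.91 to 2.81, a level like that of Sdc1, Krt18 at 0.441 to 2.04 and Epcam at 0.189 to 0.589. Krt8 was at 0.0309 in Ob replicate 1 and at 0 in the others, and Krt5 and Krt14 were listed at 0 in all 4 libraries. The part of epithelial cells in the Sdc1 values was not tested.

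**Figure D2:**
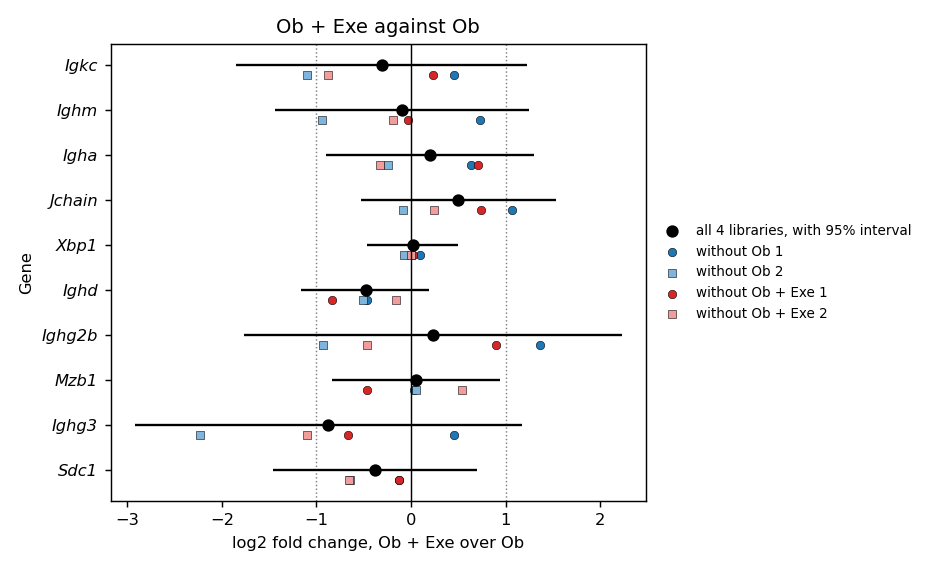
Log2 fold change of Ob + Exe over Ob for each gene (black points, bars are 95% intervals from limma) and the same value with 1 library left out (coloured points below), with dotted lines at -1 and 1. All 10 intervals include 0, and the value of Ighg3 moves between -2.23 and 0.46 with the library left out.

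The spread within the Ob group was the main feature of these genes. Of the 10, 5 were more than 2-fold higher in Ob replicate 1 than in Ob replicate 2, namely Ighm, Ighg2b, Ighg3, Igkc and Jchain, against 2.76% of the 12409 genes whose mean FPKM was 1 or more. Ob replicate 2 had the lowest value of the 4 libraries for 6 of the 10. In Ob + Exe, 3 genes, Igha, Ighg2b and Igkc, were more than 2-fold higher in replicate 2 than in replicate 1, against 6.43% of the same genes. Mzb1 differed as much in the opposite direction, which makes 4 of 10 in either direction, against 14.1%, where the Ob libraries had 5 of 10 against 5.66%. Many of these genes are transcribed by the same cells and are not independent of each other, so these counts describe the 4 libraries.

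Variable gene segments are joined to the constant genes in the same transcripts, so their levels are no independent check on the 10 genes. The summed scaled FPKM of 185 Ighv genes was 514 and 94.8 in Ob, versus 128 and 357 in Ob + Exe. For 160 Igkv genes it was 899.7 and 193 in Ob, versus 247 and 525 in Ob + Exe. That of the 3 Iglv genes was 58.1 and 29.2 in Ob, versus 24.5 and 65.2 in Ob + Exe. In all 3 families Ob replicate 1 and Ob + Exe replicate 2 were the higher library of their group. The same held for the 10 genes except Ighd and Mzb1, though by little for Xbp1.

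Markers of some other cells also differed between the Ob libraries. Neutrophil markers had a median log2 difference of 0.87 between Ob replicate 1 and Ob replicate 2, and 2 of the 8 were more than 2-fold higher. Their summed scaled FPKM was 30457 and 17585 in Ob, versus 23217 and 45266 in Ob + Exe. T and natural killer cell markers had a median log2 difference of 1.01 between the Ob libraries, 4 of 8 were more than 2-fold higher in Ob replicate 1, and their sums were 76.9 and 42.1 in Ob, versus 74.9 and 53.1 in Ob + Exe. B cell genes summed to 257 and 283 in Ob, versus 232 and 179 in Ob + Exe, without the excess in Ob replicate 1. The T and natural killer cell sums were higher in replicate 1 of both groups. Skeletal muscle markers had the largest median log2 difference between the Ob libraries (1.54), at sums of 4.62 and 1.4. Those of monocyte and macrophage, erythroid and stromal markers were -0.12, -0.03 and -0.25. The part of these cell types in the spread of the 10 genes was not tested.

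The forms of Ighm separated this spread. The secreted transcript of Ighm had a scaled FPKM of 1069.6 and 201 in Ob, versus 362 and 507 in Ob + Exe, a 5.32-fold range. The membrane transcript had 327 and 238 in Ob, versus 331 and 267 in Ob + Exe, a 1.39-fold range. The form that plasma cells make thus varied between the libraries and the receptor form of B cells varied little. The secreted share of the FPKM of Ighm was 76.6% and 45.8% in Ob, versus 52.2% and 65.6% in Ob + Exe, a difference of -2.28 percentage points (two-sided exact permutation p = 1.0). With 2 libraries against 2, the smallest p this test can give is 0.333. StringTie assigns the reads over the shared exons to the forms by estimation, so only reads on the ends printed above, on the untranslated parts and on the membrane exons tell the forms apart.

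**Figure D3:**
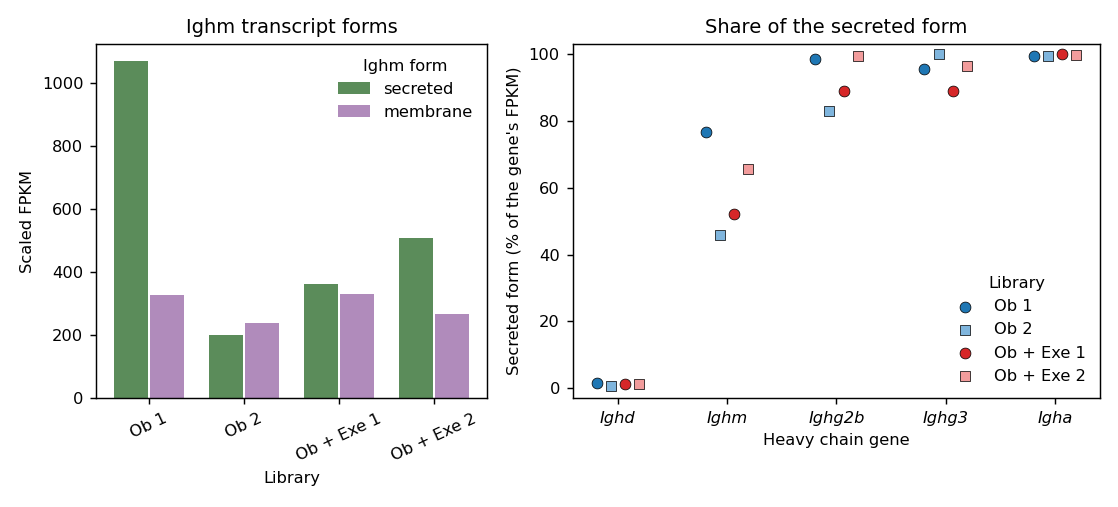
Left, scaled FPKM of the secreted and membrane transcripts of Ighm in each library (bars from 0). Right, secreted form as a percent of the FPKM of each heavy chain gene, 1 point per library. The secreted Ighm bar ranges from 201 to 1069.6 and the membrane bar from 238 to 331, and Ighd lies near 0% and Igha near 100%.

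Igha and Ighd were nearly of 1 form each. Igha was 99.3% and 99.5% secreted in Ob, versus 100% and 99.6% in Ob + Exe. Ighd was its opposite, with a secreted share of 1.49% and 0.642% in Ob, versus 1.32% and 1.28% in Ob + Exe, as the receptor of B cells is the main form of IgD. Its membrane transcript had a scaled FPKM of 57.0 and 56.2 in Ob, versus 51.0 and 32.0 in Ob + Exe. Like the membrane form of Ighm, it lacked the excess in Ob replicate 1.

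The IgG genes were mostly secreted. Ighg2b was 98.5% and 83.0% secreted in Ob, versus 89.0% and 99.5% in Ob + Exe. Its membrane transcript stayed between 0.163 and 1.28 FPKM, and the secreted share was lowest where the gene was lowest. Ighg3 was 95.4% and 100% secreted in Ob, versus 88.8% and 96.5% in Ob + Exe. Counted in read equivalents, where the longer membrane transcript weighs more, the lowest secreted share was 67.9% for Ighg2b (Ob replicate 2) and 78.0% for Ighg3 (Ob + Exe replicate 1). The membrane values of both IgG genes rest on at most 333 read equivalents.

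The remaining genes were described by their principal transcript. That of Jchain, with 4 exons, held 94.8% and 93.2% of its FPKM in Ob, versus 97.6% and 96.7% in Ob + Exe, the rest being a transcript with a retained intron. The difference of 3.21 percentage points exceeded the SD of 1.15 in Ob and 0.612 in Ob + Exe (two-sided exact permutation p = 0.333, the smallest possible). The 5-exon transcript of Xbp1 held 75.6% and 54.8% in Ob, versus 73.5% and 72.9% in Ob + Exe, and the rest was mostly split between 3-exon transcripts, one with 11.9% and 26.7% in Ob, versus 16.7% and 7.6% in Ob + Exe. The 6-exon transcript of Xbp1 was listed at 0 in all 4 libraries, and the spliced, active form of Xbp1 mRNA could not be told apart from the unspliced one here. Mzb1 was 95.5% and 90.8% its 4-exon transcript in Ob, versus 95.8% and 79.4% in Ob + Exe, and Sdc1 was at least 99.3% its 5-exon transcript in every library. Of the 9 shares tested, 2 did not overlap between the groups, those of Igha and Jchain, where the levels of 32.6% of all genes tested did not. The smallest p adjusted over the 9 (Benjamini-Hochberg on exact permutation p values) was 1.0.

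The isotype makeup was read from all heavy chain constant genes. Ighm made up 69.0% and 57.1% of their FPKM in Ob, versus 65.5% and 53.6% in Ob + Exe, and Igha 20.8% and 30.2% in Ob, versus 23.7% and 35.7% in Ob + Exe. IgM and IgA transcripts thus held most of the heavy chain FPKM in each library. Ighd made up 2.86% and 7.35% in Ob, versus 4.89% and 2.25% in Ob + Exe. The 4 Ighg genes together held 7.34% and 5.36% in Ob, versus 5.90% and 8.46% in Ob + Exe, with Ighg2c at 3.01%, 2.24%, 3.10% and 4.88%. The share of Ighg2c was higher in both Ob + Exe libraries. That of Ighg3 was lower in both, at 2.19% and 0.886% in Ob, versus 0.768% and 0.763% in Ob + Exe. Neither was tested as a share of this sum, and the other shares overlapped between the groups. Ighe, the gene of IgE, was listed at 0 in all 4 libraries. Among the light chains, Igkc held 95% and 90.3% in Ob, versus 89.6% and 93.7% in Ob + Exe, the rest being lambda.

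**Figure D4:**
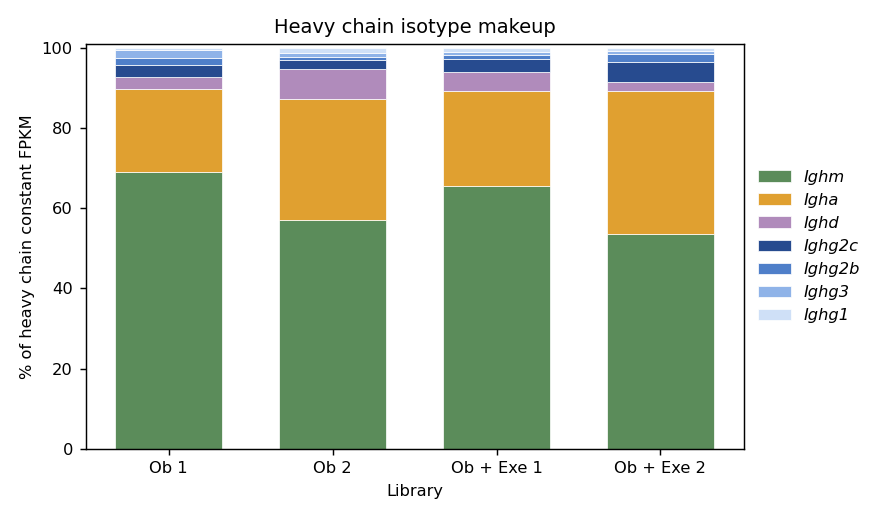
Percent of the heavy chain constant FPKM held by each gene in the 4 libraries, as stacked bars. Ighm (53.6% to 69.0%) and Igha (20.8% to 35.7%) fill most of every bar, and the 4 Ighg genes hold 5.36% to 8.46%.

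Ratios within a library do not depend on the scaling between libraries. Igkc stood to the sum of the 5 heavy chain genes as 1.55 and 1.38 in Ob, versus 0.952 and 1.53 in Ob + Exe (log2 difference -0.28, two-sided exact permutation p = 0.667). The light chain thus exceeded these heavy chains, per length, in 3 of 4 libraries. The ratio of Jchain to the sum of Igha and Ighm, whose products it links, was 0.172 and 0.21 in Ob, versus 0.266 and 0.274 in Ob + Exe. This log2 difference of 0.51 was larger than the SDs of 0.207 in Ob and 0.0328 in Ob + Exe, and it was higher in 2 of 2 Ob + Exe libraries (two-sided exact permutation p = 0.333, the smallest possible, and 0.734 after Benjamini-Hochberg adjustment over 11 ratios). The ratio of Sdc1 to Jchain was 0.00762 and 0.0115 in Ob, versus 0.00488 and 0.00511 in Ob + Exe, a log2 difference of -0.91 (two-sided exact permutation p = 0.333, adjusted 0.734).

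The third ratio without overlap was that of Ighg3 to the heavy chain sum, at 2.27% and 0.918% in Ob, versus 0.80% and 0.808% in Ob + Exe. It carries the high Ighg3 value of Ob replicate 1. The 8 other ratios overlapped between the groups. Thus 3 of 11 ratios did not overlap, where the levels of 32.6% of all genes tested did not. Among the ratios that overlapped, Ighd to Ighm was 0.0414 and 0.129 in Ob, versus 0.0746 and 0.0419 in Ob + Exe. Xbp1 to Jchain was 0.216 and 0.425 in Ob, versus 0.256 and 0.184 in Ob + Exe. Mzb1 to Igkc was 0.00577 and 0.0173 in Ob, versus 0.0268 and 0.00615 in Ob + Exe. Xbp1, Mzb1 and Ighd did not follow the spread of the other genes, and each of these ratios was lowest where its denominator was highest.

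Other genes of the pathway were read from hand-written lists. Of 7 further immunoglobulin constant genes, 5 were tested, 2 with a log2 fold change below 0 and 3 above 0, none was called and the median was 0.14. Ighg2c followed the pattern of Ighg2b, with a scaled FPKM of 60.9 and 17.2 in Ob, versus 32.8 and 70.4 in Ob + Exe (log2 fold change 0.57). The lambda genes gave 83.5 and 36.2 in Ob, versus 47.6 and 77 in Ob + Exe for Iglc1 (0.14), and 45.2 and 40.6 in Ob, versus 33.5 and 35.2 in Ob + Exe for Iglc2 (-0.32). The groups overlapped for Ighg2c and Iglc1 and not for Iglc2.

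Of 12 plasma cell regulators and surface genes, 9 had a log2 fold change below 0 and 3 above 0, none was called, and the median was -0.25. Cd38, an ectoenzyme of B lineage and other blood cells, had a scaled FPKM of 9.54 and 9.27 in Ob, versus 5.87 and 6.37 in Ob + Exe (log2 fold change -0.61, limma adjusted p = 0.959). Tnfrsf17, the plasma cell survival receptor BCMA, was near the lower limit of the tables with 0.994 and 0.328 in Ob, versus 0 and 0.315 in Ob + Exe. The highest levels of the list were those of Trp53inp1, at 36.6 and 25.9 in Ob, versus 23.0 and 44.6 in Ob + Exe, and of Tnfrsf13b (TACI), at 20.1 and 20.1 in Ob, versus 17.7 and 16.6 in Ob + Exe. With 1 library left out, the number of genes below 0 moved from 7 to 12 of 12.

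Of 33 genes of the secretory machinery of the endoplasmic reticulum, 10 had a log2 fold change below 0 and 23 above 0, none was called, and the median was 0.10. With no scaling, 14 lay below 0 and the median was 0.02. Fkbp11, a prolyl isomerase of secretory cells, had a scaled FPKM of 3.43 and 1.60 in Ob, versus 4.35 and 5.52 in Ob + Exe (log2 fold change 1.03, limma adjusted p = 0.959). Sdf2l1, a cofactor of the chaperone BiP, had 8.24 and 4.76 in Ob, versus 10 and 11.1 in Ob + Exe (0.74). Fkbp11 was called higher with the crossed replicate block (limma adjusted p = 0.446), and Sdf2l1 without Ob replicate 1 (1.13, limma adjusted p = 0.871). The genes of the list with the highest means, Hsp90b1 (0.04) and Sec61b (0.23), overlapped between the groups. Hsp90b1 encodes GRP94, the chaperone with which the product of Mzb1 works.

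Niche ligands and receptors of plasma cells gave 6 genes below 0 and 5 above 0 of 11, no call and a median of -0.03. Cxcl12, the chemokine that holds plasma cells in the marrow, had 93.1 and 142 in Ob, versus 88.8 and 143 in Ob + Exe, and its receptor gene Cxcr4 had 159.6 and 154 in Ob, versus 135 and 161 in Ob + Exe. Itga4 (log2 fold change -0.53) and Tnfsf13, the gene of the survival factor APRIL (-0.73), were not called either. Of 8 immunoglobulin receptor genes tested, 3 lay below 0 and 5 above 0, with none called and a median of 0.04, and for 6 germinal center genes the numbers were 2, 4 and none, with a median of 0.05.

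Among the lists of the B lineage, calls were made in those of B cell and of B cell precursor genes only. Of 12 B cell surface and identity genes, 11 had a log2 fold change below 0, against 9607 of the 18596 genes tested. Of the 12, 1 was called, where 2.74% of all genes tested were called lower. Cd79a, the signalling chain of the antigen receptor, had a scaled FPKM of 48.4 and 44.4 in Ob, versus 21.4 and 23.6 in Ob + Exe (log2 fold change -1.04, standard error 0.20, limma adjusted p = 0.941). The median of the list was -0.37. Without Ob replicate 1 or without Ob + Exe replicate 1, Cd79a had a log2 fold change of -0.98 and was not called, and 9 of 12 genes lay below 0. Blk, picked out after its values were seen, had a log2 fold change of -0.38 on all 4 libraries and was not called. Its groups overlapped, and the value was -1.01 without Ob + Exe replicate 1 and 0.24 without Ob + Exe replicate 2. Of 8 pro-B and pre-B cell genes, all 8 were below 0 and 2 were called, where 2.74% of all genes tested were called lower. The median was -0.78. Genes of 1 list can be transcribed by the same cells and are not independent, so these counts describe the 4 libraries.

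Igll1, a surrogate light chain gene of pre-B cells, had a scaled FPKM of 14.4 and 12.9 in Ob, versus 4.97 and 3.56 in Ob + Exe (log2 fold change -1.67, standard error 0.28, limma adjusted p = 0.941). Vpreb2, the gene of its partner, had 1.63 and 0.81 in Ob, versus 0.265 and 0 in Ob + Exe (-2.71, limma adjusted p = 0.959), and Vpreb3 had 48.5 and 52.3 in Ob, versus 32.7 and 31.6 in Ob + Exe (-0.65, limma adjusted p = 0.959). The groups did not overlap for 6 of the 8 genes of the list, these 3 included, against 32.6% of all genes tested. They overlapped for Il7r and Rag1. Igll1 was called in each alternative fit on all 4 libraries, and with 1 library left out its log2 fold change was -1.92 to -1.45. Vpreb2 lay near the lower limit of the tables. It was not called with a pseudocount of 1 (-0.96), a pseudocount of 0.01 (-4.46) or voom (-4.29). At a minimum FPKM of 1 Vpreb2 was not tested, and with 1 library left out its log2 fold change was -3.65 to -1.79. All 8 genes stayed below 0 under the other scalings, and without Ob + Exe replicate 1 there were 6. Whether these lists differed from the 10 genes described here was not tested.

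**Figure D5:**
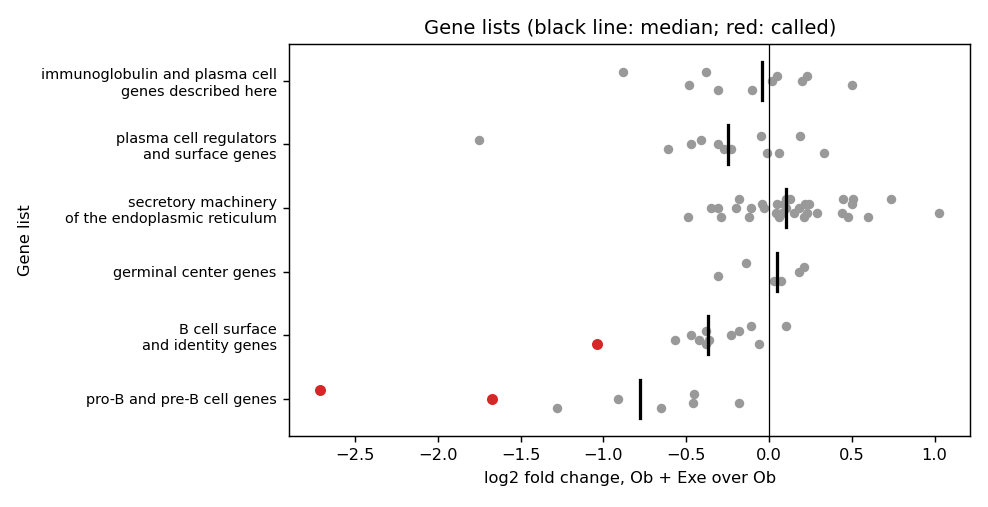
Log2 fold change of Ob + Exe over Ob for the 10 genes and for the tested genes of 5 lists, 1 point per gene, with the median as a black line and called genes in red. The 10 genes lie on both sides of 0 with a median of -0.04, while the 8 pro-B and pre-B cell genes are all below 0.

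Markers of the other cells in the marrow were read in the same way. Plasmacytoid dendritic cells, which also express Mzb1, had 6 of 7 markers below 0, none called, a median of -0.23 and sums of 105 and 111 in Ob, versus 131 and 64.5 in Ob + Exe. Mzb1 was highest and lowest in the same libraries as this sum, Ob + Exe replicate 1 and replicate 2. Of the markers, only Bst2 and Irf8, which had the highest levels and carried most of the sum, had both extremes in these libraries. Siglech was lowest in Ob replicate 2 and Klk1 was highest there. Ccr9, Runx2 and Tcf4 were highest in Ob replicate 1. The part of these cells in the Mzb1 values was not tested. Neutrophil markers had a median of 0.32 (7 of 8 above 0), T and natural killer cell markers 0.07 (5 of 8 above 0), and monocyte and macrophage (6 genes) and erythroid markers (7 genes) -0.12 each, all without a call. The 4 megakaryocyte markers had a median of -0.65 and sums of 441 and 314 in Ob, versus 364 and 133 in Ob + Exe, without a call. Of 3 skeletal muscle genes tested, Acta1 was called higher (1.56, limma adjusted p = 0.959). Its scaled FPKM was low, at 2.58 and 0.998 in Ob, versus 4.62 and 5.29 in Ob + Exe. Of 9 fibroblast and stromal markers, Col1a1 was called lower (-1.02, limma adjusted p = 0.959). It had 3.14 and 3.04 in Ob, versus 1.17 and 1.85 in Ob + Exe. Of all genes tested, 3.74% were called in either direction and 2.74% were called lower. The medians of the muscle and stromal lists were 0.96 and 0.16. The 3 tested adipocyte markers had a median of 0.28 and the 3 tested epithelial markers of 0.18, without a call.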

How the data were processed

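RNA-seq libraries of tibial bone marrow, 2 of Ob and 2 of Ob + Exe, were grouped by their GEO labels. The authors trimmed reads with fastp, removed rRNA reads, aligned to GRCm38 with HISAT2, filtered with SAMtools and ran StringTie on the GENCODE vM25 transcripts (versions and strand setting not given in the sources used here). The authors deposited 1 table of 142604 transcripts per library, with coverage, a signal not scaled for depth, and FPKM.

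Here the FPKM of transcripts were summed by gene and divided by median-of-ratios factors (0.940228 to 1.03679). Genes whose mean FPKM was 0.1 or more were tested as log2(scaled FPKM + 0.1) with limma 3.58.1 in R 4.3.3 (lmFit, eBayes with an intensity trend, 2 residual and 3.79 prior degrees of freedom, Benjamini-Hochberg adjustment), a scale that understates the change of low genes. The authors' own test was DESeq2, which takes read counts, whereas the deposited values are coverage and FPKM. Limma on scaled FPKM took the place of DESeq2 with the authors' thresholds, a log2 fold change beyond 1 at an unadjusted p under 0.05. Read equivalents estimated from the coverage were used with voom as an alternative, and DESeq2 was not run on them. The method was tested on simulated data. Shares and ratios were compared with two-sided exact permutation tests over libraries. Read equivalents are coverage times length divided by 150 bases. Only 2 libraries stand behind each mean, which limits the precision more than the depth does.

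The 10 genes and the 18 gene lists were chosen with earlier results of these data known, and so support nothing as independent evidence. Named from a list are its called genes, the 2 with the highest mean and the 2 with the largest log2 fold change, and markers at or near 0. Of these, some are left out for brevity. The alternatives were a minimum of 1 or none, pseudocounts of 1 and 0.01, quantile normalization or no scaling, limma without the intensity trend, voom on read equivalents, a replicate block and leaving out each library. The crossed replicate block was chosen after seeing the data. Python 3.11.15, pandas 2.3.3 and matplotlib 3.10.9 were used.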

Additional observations from a re-analysis of the deposited data

How the results depend on the processing

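None of the 10 genes was called under any alternative except Ighg3 without Ob replicate 2, so the number called with 1 library left out was 0 to 1. Calls over all genes were 459 with voom, 267 at a minimum FPKM of 1, 1060 with no intensity trend, 224 with a pseudocount of 1, and 746 to 1921 with 1 library left out, against 696 (510 lower and 186 higher, where quantile normalization gave 417 and 246). The median of the 10 genes moved from -0.58 without Ob replicate 2 to 0.46 without Ob replicate 1. Signs turned with no scaling for Mzb1 (-0.04) and Xbp1 (-0.07), and with quantile normalization for Xbp1 (-0.04). With 1 library left out, the log2 fold change ranged from -0.94 to 0.73 for Ighm, -0.33 to 0.71 for Igha, -0.93 to 1.37 for Ighg2b, -2.23 to 0.46 for Ighg3, -1.10 to 0.46 for Igkc, -0.08 to 1.07 for Jchain, -0.07 to 0.10 for Xbp1 and -0.46 to 0.54 for Mzb1, and only Ighd (-0.83 to -0.16) and Sdc1 (-0.66 to -0.13) kept their sign. Shares of the secreted or principal form moved, in percentage points, from -17.7 to 13.1 for Ighm, -0.184 to 0.66 for Ighd, -4.22 to 11.3 for Ighg2b, -13.7 to 2.63 for Mzb1, -0.00321 to 0.678 for Sdc1 and -2.37 to 18.4 for Xbp1. Log2 differences of ratios moved from -0.62 to 0.07 for Igkc to heavy chains, -0.20 to 0.07, -1.13 to 0.23, -0.07 to 0.54 and -0.21 to 0.74 for Ighm, Ighd, Igha and Ighg2b to heavy chains, -1.20 to 0.43 for Ighd to Ighm, -0.70 to 1.42 for Mzb1 to Igkc and -0.97 to 0.01 for Xbp1 to Jchain, while Jchain to Igha plus Ighm (0.36 to 0.65), Sdc1 to Jchain (-1.21 to -0.61) and Ighg3 to heavy chains (-1.5 to -0.19) kept their sign. The cause was not tested. On read equivalents, 20 of 20 shares and ratios kept their direction, but the difference in share moved by over 1.5 times for Igha (0.92), Ighd (0.107), Ighg2b (6.13), Ighg3 (-9.94), Jchain (5.08) and Sdc1 (0.0918).

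The replicate numbers share only a number, since nothing describes a pairing, and the correlation of same-numbered deviations was -0.106 over the 18596 genes tested and -0.235 over the 12409 with a mean FPKM of 1 or more. The replicate block gave 740 calls and 18 genes with a limma adjusted p under 0.05, and the crossed pairing, chosen after seeing the data, 803 and 11, with none of the 10 genes among them.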
